A study of Mus musculus with 16 samples.

Results

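The genes described are 7 ion channel genes of the muscle membrane, *Scn4a*, *Clcn1*, *Kcnj2*, *Kcnj11*, *Kcnn3*, *Kcnma1* and *Cacna1h*. They were taken by name from the symbol column of a count table of quadriceps muscle, where each of these symbols stands once, and they are 7 of its 41388 genes. The rule that defines the set speaks of sodium, chloride and potassium channels and of the sodium pump. None of the 7 genes encodes a pump subunit, and *Cacna1h* encodes a calcium channel, so pump genes are given with the other lists. All 7 genes passed the filter on low counts in every comparison.

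The membrane of a skeletal muscle fiber carries the action potential from the synapse along the surface and into the transverse tubules. A voltage-gated sodium channel drives its rising phase, chloride and potassium channels hold the resting potential and end the action potential, and the sodium pump restores the ion gradients. Inherited changes in several of these genes are known causes of myotonia and periodic paralysis, and the small-conductance channel encoded by *Kcnn3* is known from muscle that has lost its nerve.

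RNA was sequenced from the quadriceps of 16 mice on the C57BL/6 background at postnatal day 36, both by the sample labels, with 4 mice in each of 4 groups. The methods of the paper also give day 36 for muscle extracts. Its description of the supplementary sequencing data gives another age, and the labels were followed. WT mice were wild type and untreated, and WT + TAM mice were wild type and received tamoxifen, a ligand of the estrogen receptor, at 40 mg/kg in chow from day 21. KO mice were *Mtm1* -/- and untreated, and KO + TAM mice had the same genotype and the same tamoxifen diet. *Mtm1* encodes myotubularin, a phosphatase of membrane lipids, and the KO allele lacks exon 4, which was removed by homologous recombination. The deletion is carried in the whole body and tamoxifen was eaten with the chow, so neither is limited to muscle fibers by design. Total counts per library ranged from 25116179 to 29847222.

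*Mtm1* itself was checked against the labels, in CPM (counts scaled to library size) normalized with TMM, which gives each library 1 factor taken over most genes. It stood at 13.8, 14.7 and 13.8 in WT replicates 2 to 4 and at 12.3, 18.7, 14.9 and 14 in WT + TAM replicates 5 to 8. It stood at 2.52, 2.09 and 2.45 in KO replicates 9 to 11 and at 1.79, 2.95, 2.65 and 3.06 in KO + TAM replicates 13 to 16. Every KO library was low, every WT library was high, and the genotypes did not overlap. Reads from the exons that remain are part of the KO counts. The paper left out 2 further libraries without a stated reason. In the library labelled WT replicate 1, *Mtm1* reached 74 counts, which goes against its label, since WT replicates 2 to 4 had 341 to 369 and KO replicates 9 to 11 had 63 to 76. The library labelled KO replicate 12 had 85. Results are given for the 14 other libraries and then with these 2 added.

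The library labelled WT replicate 1 also stood apart from the other WT libraries in the channel genes, on a scaling over all 16 libraries. In this library *Scn4a* was at 202 normalized CPM, *Clcn1* at 66.8, *Kcnj11* at 11.5 and *Cacna1h* at 2.06, each below all 7 other WT and WT + TAM libraries. Its *Kcnj2*, at 28.3, and its *Kcnma1*, at 11.8, lay within their range. Its *Kcnn3*, at 0.464, was the lowest of the 16 libraries, on the side of WT. The library labelled KO replicate 12 had the lowest *Scn4a* (141), *Clcn1* (49.9) and *Kcnj11* (4.28) of the 16, and *Kcnn3* at 3.08.

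Skeletal muscle markers were present in every library, so the labelled tissue has its defining genes. Over the 14 libraries, the 8 markers of the skeletal muscle fiber summed to between 45277 and 108477 in TMM-scaled RPKM, a level per gene length. Their most abundant gene was *Acta1*, the actin of the skeletal muscle thin filament. On this scale the WT levels of the channel genes had the order *Scn4a* with 50.0 ± 7.21 (SD, n = 3), *Kcnj11* with 42.3 ± 10.6, *Clcn1* with 24.8 ± 1.79, *Kcnj2* with 6.84 ± 1.55, *Kcnma1* with 2.11 ± 0.477, *Cacna1h* with 0.464 ± 0.1 and *Kcnn3* with 0.170 ± 0.0930. With the deposited gene lengths, the neighbours *Scn4a* and *Kcnj11* did not differ beyond their spread, and the others did. In KO the order was *Scn4a* with 26.1 ± 2.85 (SD, n = 3), *Kcnj11* with 16.9 ± 4.62, *Clcn1* with 16.8 ± 3.56, *Kcnj2* with 8.94 ± 1.62, *Kcnma1* with 2.01 ± 0.148, *Kcnn3* with 0.762 ± 0.151 and *Cacna1h* with 0.256 ± 0.00843. There *Kcnj11* and *Clcn1* lay together, and *Kcnn3* and *Cacna1h* had changed places. The gene lengths behind the deposited RPKM are not stated. In normalized CPM, *Kcnj11* was at 49.6 and *Clcn1* at 135 in WT, and their annotated exons have 3677 and 5428 bases. The deposited length of *Kcnj11* is thus shorter than its annotated exons, and its place in both orders rests on that length. Per annotated exon base, *Kcnj11* would lie below *Clcn1*.

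*Scn4a* encodes the pore-forming subunit of the voltage-gated sodium channel of skeletal muscle, which carries the action potential. It is listed as ENSMUSG00000001027 and lies on the minus strand of chromosome 11 from 106318592 to 106353288 (GRCm38, annotation GENCODE vM21), where no other annotated gene overlaps it. Its level was 326, 411 and 319.7 normalized CPM in the WT libraries and 291, 437, 354 and 335 in WT + TAM. It was 204, 163 and 185 in KO and 195, 199, 192 and 183 in KO + TAM. All 7 KO and KO + TAM libraries were low, all 7 WT and WT + TAM libraries were high, and the genotypes did not overlap. The KO + TAM libraries lay closest together, with an SD of 6.45 (n = 4) against 61.0 (n = 4) in WT + TAM. With treatment as a covariate, the log2 fold change between KO and WT was -0.91 (standard error 0.09, edgeR adjusted p = 4.25e-06). Each edgeR adjusted p comes from its quasi-likelihood test, adjusted by Benjamini-Hochberg over all genes tested. Each standard error was derived from this test, as the size of the log2 fold change over the square root of F. A gene is called, or named as higher or lower, where this value is at most 0.01. The *Scn4a* fold is 0.534 times the WT level. The log2 fold change was -0.87 (edgeR adjusted p = 7.89e-05) with the 2 other libraries added. In bulk tissue, fewer muscle fibers and less RNA per fiber cannot be told apart.

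The sodium pump list and the other sodium channel genes show how the partners of *Scn4a* stood. Over both treatments edgeR called 20.2% of all genes and DESeq2 25.8%, and edgeR 33.5% when scaled by library size alone. The counts of each channel and pump list below stand beside these shares. Of 6 other sodium channel genes, 1 was higher and 1 lower in KO over both treatments, with a median log2 fold change of -0.34 beside 0.00 over all genes, and of -0.03 when scaled by library size alone. The one that fell was *Scn4b*, a regulatory beta subunit, at 104 ± 5.74 (SD, n = 3) in TMM-scaled RPKM in WT and 61.8 ± 16.9 (SD, n = 3) in KO, with a log2 fold change of -0.78 (edgeR adjusted p = 1.05e-04).

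Of 10 sodium pump genes, 2 were higher and 1 lower in KO over both treatments by edgeR, with a median log2 fold change of 0.28. DESeq2 called 6 of them and limma with a pseudocount of 1 called 5. *Atp1b2*, a beta subunit that carries the pump to the membrane, fell with a log2 fold change of -0.71 (edgeR adjusted p = 7.50e-04), from 139.9 ± 41.5 (SD, n = 3) to 87.5 ± 6.37 (SD, n = 3) in TMM-scaled RPKM between WT and KO. *Fxyd5*, a small modulator of the pump, rose with a log2 fold change of 1.06 (edgeR adjusted p = 8.56e-04). *Fxyd1*, phospholemman, was the most abundant gene of the list, with a log2 fold change of 0.04 (edgeR adjusted p = 0.832) that was -0.05 with the 2 other libraries added. When scaled by library size alone, 4 pump genes were higher and 0 lower.

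*Clcn1* encodes the chloride channel of skeletal muscle that stabilizes the resting membrane. It is listed as ENSMUSG00000029862, on the plus strand of chromosome 6 from 42286685 to 42315756. Its level was 124, 143 and 137 normalized CPM in the WT libraries and 128, 198, 127 and 128 in WT + TAM. It was 111, 72.8 and 89.4 in KO and 84.4, 108, 72.4 and 89.3 in KO + TAM. Again all 7 KO and KO + TAM libraries lay below all 7 WT and WT + TAM libraries, and WT + TAM replicate 6 stood above the rest. The log2 fold change of KO against WT, with treatment as a covariate, was -0.65 (standard error 0.13, edgeR adjusted p = 9.14e-04). The call was lost with the 2 other libraries added (-0.63, edgeR adjusted p = 0.0129) and when scaled by library size alone (-0.35, edgeR adjusted p = 0.0344). Limma on log2 RPKM did not call it either, with adjusted p values of 0.0337 (pseudocount 0.1) and 0.0349 (pseudocount 1). *Fam131b*, on the opposite strand, shares 445 of the 5428 exon bases of *Clcn1* and had 18 to 65 counts, against 2193 to 4864 for *Clcn1*. The strand setting of the counting is not stated, so reads of the shared bases cannot be told apart.

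Of 7 other genes listed with the chloride channels, 0 were higher and 1 lower in KO over both treatments by edgeR, and DESeq2 also called 1. The list's median log2 fold change was -0.27, and 0.03 when scaled by library size alone. The gene that fell was *Ano5*, an anoctamin known for a muscular dystrophy and the most abundant of the list. *Ano5* was listed by its gene family, so its fall is not read as that of a chloride channel. Its level was 25.1 ± 5.76 (SD, n = 3) in WT and 13 ± 2.51 (SD, n = 3) in KO in TMM-scaled RPKM, with a log2 fold change of -0.89 (edgeR adjusted p = 1.59e-04). The count was 2 without WT + TAM replicate 5.

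*Kcnj2* encodes an inward rectifier potassium channel, Kir2.1, that holds the resting potential. The gene, ENSMUSG00000041695, lies on the plus strand of chromosome 11 from 111066164 to 111076821, with no overlapping gene. Its level was 34.8, 30.2 and 46.6 normalized CPM in the WT libraries and 29.7, 27.9, 37.2 and 38.1 in WT + TAM. It was 49.4, 57.1 and 39.5 in KO and 60.2, 49.6, 56.3 and 55.6 in KO + TAM. The KO libraries were mostly high, but KO replicate 11 lay below WT replicate 4, so the genotypes overlapped. The log2 fold change of KO against WT, with treatment as a covariate, was 0.59 (standard error 0.12, edgeR adjusted p = 0.00140), and 0.64 (edgeR adjusted p = 7.06e-04) with the 2 other libraries added.

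*Kcnj11* encodes Kir6.2, the pore of the ATP-sensitive potassium channel, which ties membrane potential to the energy state of the fiber. It is listed as ENSMUSG00000096146, on the minus strand of chromosome 7 from 46093953 to 46100764, with no overlapping gene. Its level was 52.7, 60.1 and 35.9 normalized CPM in the WT libraries and 35.7, 57.4, 52.9 and 49.6 in WT + TAM. It was 24.4, 13.9 and 21.3 in KO and 19.1, 25, 22.9 and 28.4 in KO + TAM. Every KO and KO + TAM library was low and the genotypes did not overlap, although WT replicate 4 and WT + TAM replicate 5 were the lowest of the high side. With treatment as a covariate, the log2 fold change of KO against WT was -1.16 (standard error 0.15, edgeR adjusted p = 3.56e-05), which is 0.449 times the WT level. It was -1.18 (edgeR adjusted p = 0.00812) with the 2 other libraries added, where the genotypes overlapped.

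Of 7 other genes of inward rectifiers and the ATP-sensitive channel, 5 passed the filter on low counts. In KO over both treatments 0 of these were higher and 2 lower by edgeR, and DESeq2 called 2. Their median log2 fold change was -0.24, and 0.05 when scaled by library size alone. *Kcnj12*, which encodes Kir2.2, a close relative of Kir2.1, fell with a log2 fold change of -1.28 (edgeR adjusted p = 2.02e-05), opposite in direction to *Kcnj2*. It went from 18.2 ± 3.96 (SD, n = 3) in WT to 7.40 ± 2.32 (SD, n = 3) in KO in TMM-scaled RPKM. *Abcc9*, the sulfonylurea receptor SUR2 that forms a channel with Kir6.2, fell with a log2 fold change of -0.78 (edgeR adjusted p = 8.56e-05), the same direction as *Kcnj11*. It went from 29.0 ± 6.08 (SD, n = 3) to 16.1 ± 2.2 (SD, n = 3).

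Voltage-gated potassium channels end the action potential. Of 16 such genes, 15 passed the filter, and 2 were higher and 6 lower in KO over both treatments, with a median log2 fold change of -0.38. When scaled by library size alone 2 were higher and 4 lower, with a median of -0.08. *Kcna7*, a Kv1 channel of skeletal muscle and the most abundant of the list, fell from 73.1 ± 6.93 (SD, n = 3) in WT to 34.8 ± 6.60 (SD, n = 3) in KO in TMM-scaled RPKM. Its log2 fold change was -0.90 (edgeR adjusted p = 3.30e-05). *Kcnab1*, a beta subunit, fell with a log2 fold change of -1.56 (edgeR adjusted p = 2.12e-04). The Kv3 genes *Kcnc1* (-0.49, edgeR adjusted p = 9.83e-04) and *Kcnc4* (-0.47, 7.33e-04) also fell. The calls of *Kcnc1* and *Kcnc4* were lost when scaled by library size alone. Among the genes that rose, *Kcnq5*, a Kv7 gene named after its value was seen, had a log2 fold change of 0.89 (edgeR adjusted p = 0.00439). It was not called without WT replicates 2 to 4, KO replicate 11 or KO + TAM replicate 14, 1 at a time (edgeR adjusted p = 0.0103 to 0.0116).

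*Kcnn3* encodes SK3, a potassium channel opened by calcium that gives a slow afterhyperpolarization. The gene, ENSMUSG00000000794, lies on the plus strand of chromosome 3 from 89520164 to 89675132, with no overlapping gene. Its counts were low, from 12 to 261 in the 14 libraries. Its level was 1.87, 0.516 and 1.38 normalized CPM in the WT libraries and 1.22, 2, 2.2 and 1.75 in WT + TAM. It was 6.60, 4.42 and 5.88 in KO and 5.03, 7.82, 7.43 and 4.89 in KO + TAM. Every KO and KO + TAM library was high and the genotypes did not overlap, also with the 2 other libraries added. With treatment as a covariate, the log2 fold change of KO against WT was 1.95 (standard error 0.23, edgeR adjusted p = 1.40e-05), which is 3.87 times the WT level and the rank 207 from the highest of 15556 genes. With the 2 other libraries it was 2.0 (edgeR adjusted p = 3.00e-05). Limma on RPKM without TMM, with a pseudocount of 1 that shrinks low levels, gave 0.67.

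*Kcnma1* encodes the BK channel, a potassium channel of large conductance opened by calcium and voltage together. It is listed as ENSMUSG00000063142, on the minus strand of chromosome 14 from 23289431 to 24014491, where 4 genes of the opposite strand overlap it and 1 of them, *4930519K11Rik*, shares exon bases with it. Its level was 11.1, 17.2 and 12.9 normalized CPM in the WT libraries and 10.5, 21.0, 12.2 and 16.4 in WT + TAM. It was 12.4, 14.2 and 12.7 in KO and 11.8, 11.8, 14.9 and 11.2 in KO + TAM. All 4 groups overlapped, and the WT side held both the lowest and the highest library. Between KO and WT the log2 fold change with treatment as a covariate was -0.18 (standard error 0.15, edgeR adjusted p = 0.356), and it was 0.13 when scaled by library size alone.

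Of 7 other genes of calcium-activated potassium channels, 6 passed the filter, and in KO over both treatments 0 were higher and 2 lower by edgeR, with 2 called by DESeq2 and 1 by limma. The median log2 fold change was -0.03, and 0.27 when scaled by library size alone, where 1 was higher and 1 lower. The genes that fell were the SK relatives of *Kcnn3*. *Kcnn2*, which encodes SK2, went from 0.552 ± 0.129 (SD, n = 3) in WT to 0.159 ± 0.0467 (SD, n = 3) in KO in TMM-scaled RPKM, with a log2 fold change of -1.57 (edgeR adjusted p = 3.29e-05). *Kcnn1*, which encodes SK1 and is the most abundant of the list, went from 4.27 ± 0.234 (SD, n = 3) to 2.94 ± 0.406 (SD, n = 3), with a log2 fold change of -0.62 (edgeR adjusted p = 1.88e-04). The call of *Kcnn1* was lost when scaled by library size alone and with limma. The SK genes thus moved in opposite directions, with *Kcnn3* higher and *Kcnn1* and *Kcnn2* lower.

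*Cacna1h* encodes Cav3.2, a T-type calcium channel that opens near the resting potential. The gene, ENSMUSG00000024112, lies on the minus strand of chromosome 17 from 25374285 to 25433783. *Tpsg1*, on the opposite strand, shares 158 of its 9763 exon bases and had 0 to 10 counts, against 44 to 143 for *Cacna1h*. Its level was 3.93, 4 and 5.65 normalized CPM in the WT libraries and 2.44, 2.89, 3.58 and 3.16 in WT + TAM. It was 2.59, 2.42 and 2.49 in KO and 1.52, 1.58, 1.25 and 1.80 in KO + TAM. The untreated WT libraries were the highest and the KO + TAM libraries the lowest, while WT + TAM and KO overlapped. Within each genotype, every treated library of the 14 lay below every untreated one, but the library labelled WT replicate 1 lay below all WT + TAM libraries. With treatment as a covariate, the log2 fold change of KO against WT was -0.92 (standard error 0.15, edgeR adjusted p = 2.13e-04), and -0.85 (edgeR adjusted p = 0.00218) with the 2 other libraries added. Limma changed the scaling too, since it ran on RPKM without TMM, and its pseudocounts shrink low levels. It gave -0.44 with 0.1 and -0.13 with 1. In untreated mice the log2 fold change of *Cacna1h* was -0.83 by edgeR with TMM. It was -0.52 when scaled by library size alone and -0.39 with limma and 0.1.

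Of 7 other genes of voltage-gated calcium channels, 6 passed the filter, and 1 was higher and 2 lower in KO over both treatments. The median log2 fold change was -0.10, and 0.20 when scaled by library size alone, where 3 were higher and 2 lower. Limma also called 5. *Cacna1s*, the voltage sensor of the transverse tubule, went from 127 ± 19.2 (SD, n = 3) in WT to 83.2 ± 12.6 (SD, n = 3) in KO in TMM-scaled RPKM, with a log2 fold change of -0.67 (edgeR adjusted p = 1.32e-04). *Cacna2d1*, its alpha2delta subunit, fell with a log2 fold change of -0.68 (edgeR adjusted p = 1.83e-04). *Cacng1*, its gamma subunit and the most abundant gene of the list, rose from 195 ± 30.9 (SD, n = 3) to 358 ± 71.1 (SD, n = 3), with a log2 fold change of 0.81 (edgeR adjusted p = 1.44e-04). Subunits of 1 channel thus moved in opposite directions.

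**Figure D1:**
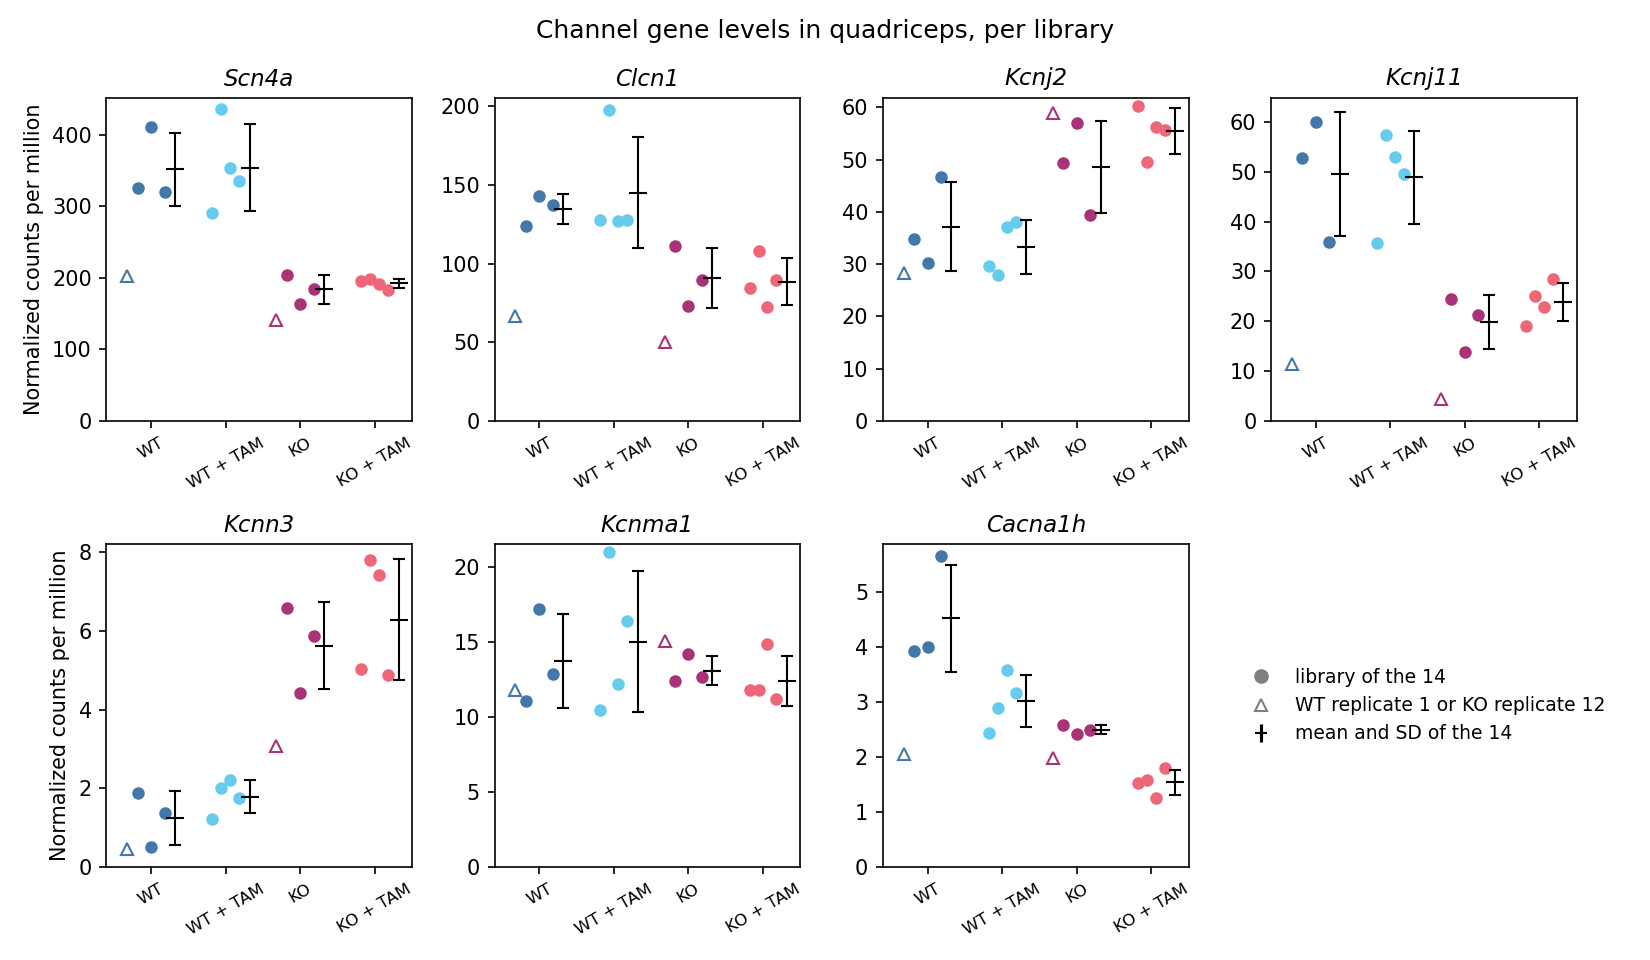
Normalized CPM of the 7 channel genes in each of the 16 libraries, by group, with the mean and SD of the 14 libraries in black. Filled circles are the 14 libraries, and open triangles, on a scaling over all 16, are the 2 libraries that the paper left out. *Scn4a*, *Clcn1*, *Kcnj11* and *Kcnn3* show no overlap between the circles of the KO and WT genotypes, and for *Cacna1h* the circles with and without tamoxifen do not overlap within either genotype, a difference that edgeR did not call.

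Taken over both treatments, 6 of the 7 channel genes differed between genotypes, 2 higher (*Kcnj2* and *Kcnn3*) and 4 lower (*Scn4a*, *Clcn1*, *Kcnj11* and *Cacna1h*) in KO. This share stands beside 20.2% of all 15556 genes called in the same test. The 7 genes had a median log2 fold change of -0.65, beside 0.00 over all genes, and of -0.35 when scaled by library size alone. The same 6 were called without any 1 of the 14 libraries. With the 2 other libraries added 5 were called, without *Clcn1*, beside 14.3% of all genes. Scaling by library size alone moved the median of all genes to 0.31, and 5 of the 7 were then called, again without *Clcn1*, beside 33.5% of all genes. Limma called the same 5, beside 33.3% and 33.1% of all genes with pseudocounts of 0.1 and 1. No overlap between the 7 KO and 7 WT libraries was found for 4 of the 7, *Scn4a*, *Clcn1*, *Kcnj11* and *Kcnn3*, beside 10.7% of all genes. With the 2 other libraries added this held for 2, *Scn4a* and *Kcnn3*, beside 5.57%.

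The other channel and pump genes were also often called over both treatments. Of the 55 that passed the filter, 6 were higher in KO and 15 were lower (median log2 fold change -0.16), beside the same 20.2% of all genes called. When scaled by library size alone 11 were higher and 11 lower, with a median of 0.14, beside 33.5% of all genes. The lists were written by hand with earlier results of these data known, so their share says nothing about channel genes in general.

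**Figure D2:**
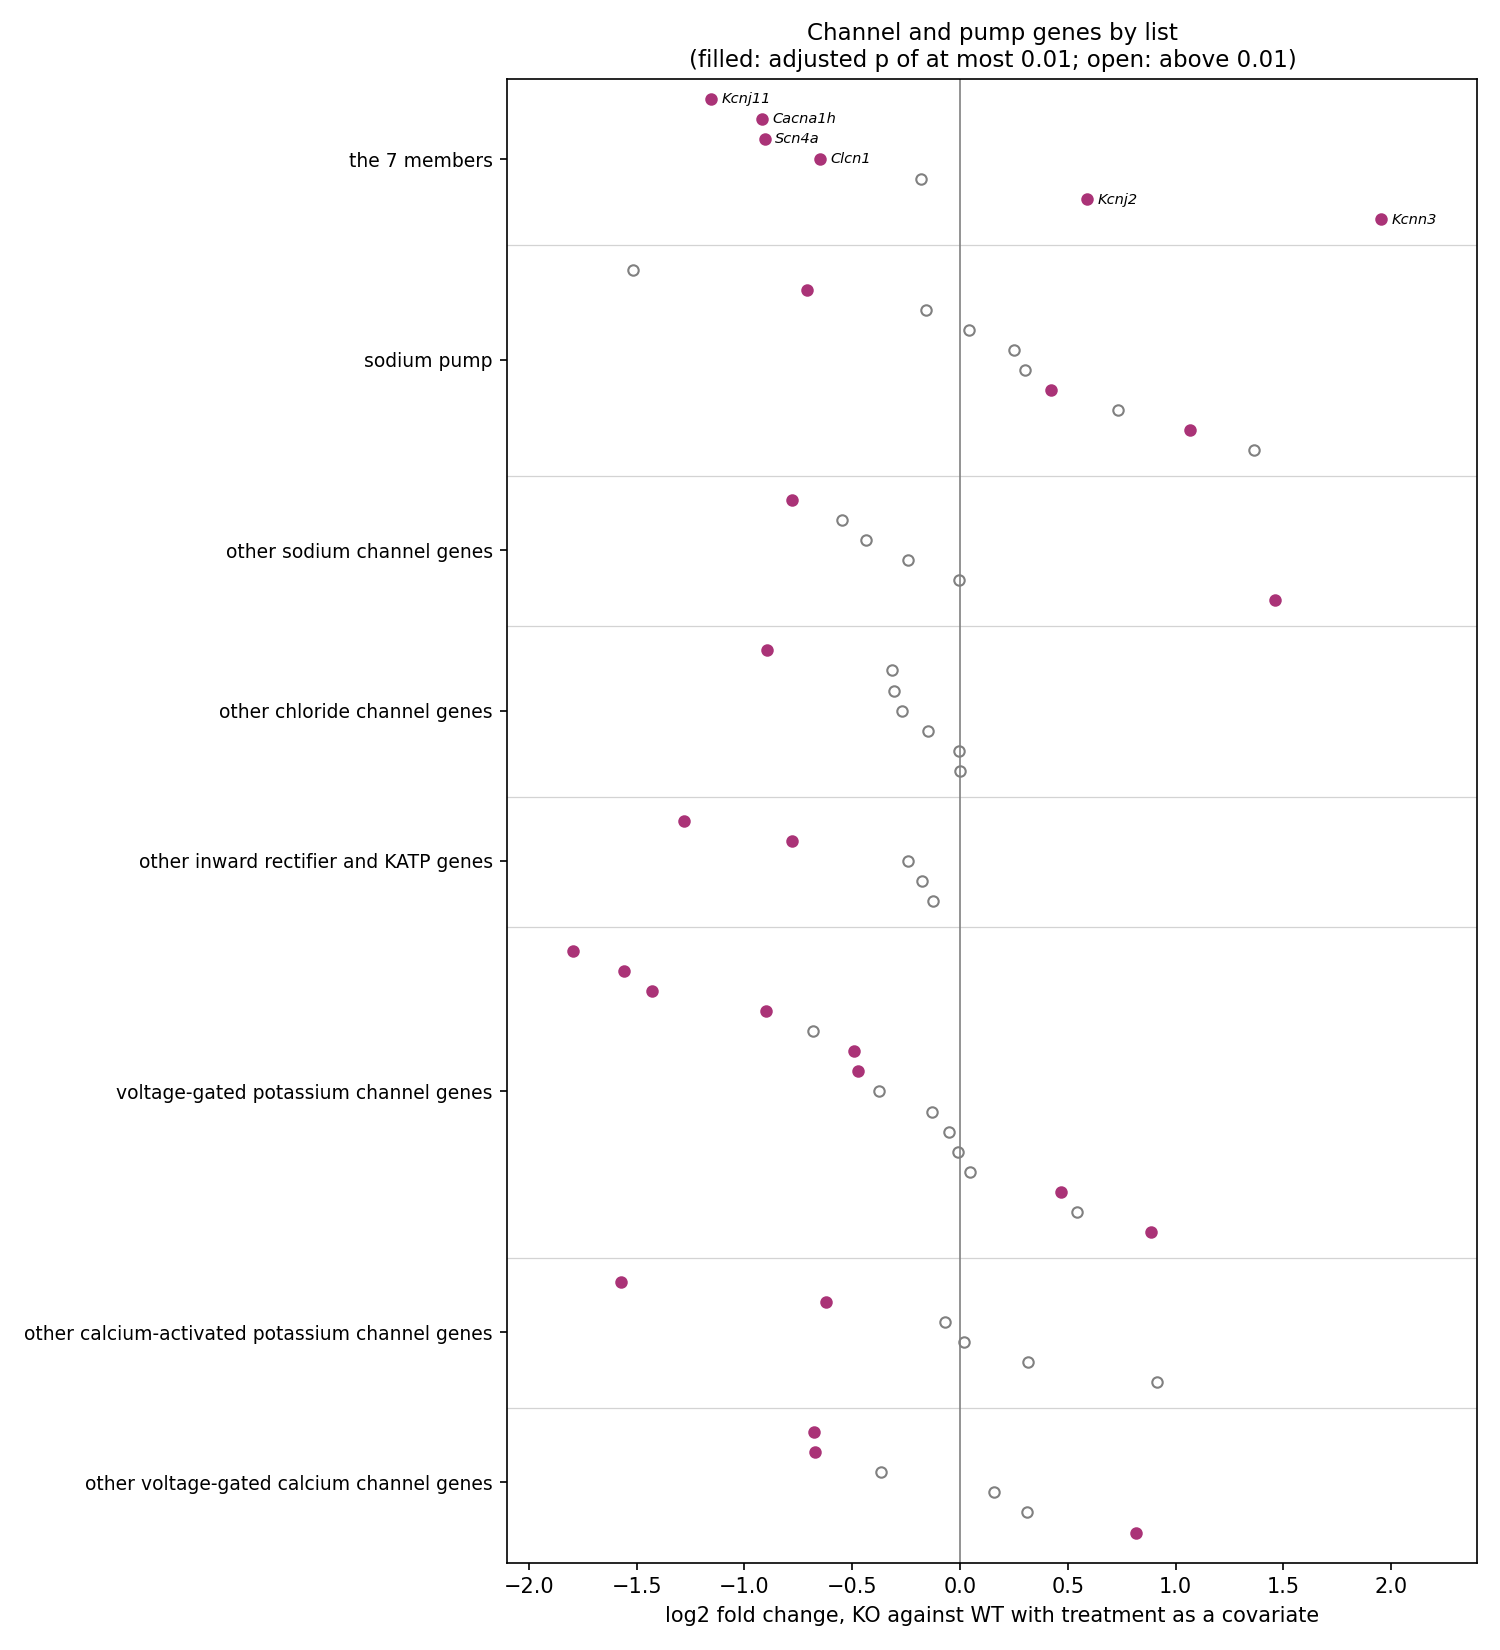
Log2 fold change of KO against WT, with treatment as a covariate, for the 7 channel genes and the 55 other channel and pump genes that passed the filter on low counts, 1 circle per gene. Filled circles have an adjusted p of at most 0.01, and names are given for the called genes among the 7. Calls lie on both sides of 0 in most lists, with *Kcnn3* at 1.95 the highest.

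Untreated KO and WT mice were compared to ask which channel genes differ in the disease model. With 3 libraries a group, *Scn4a* was lower in KO with a log2 fold change of -0.91 (standard error 0.15, edgeR adjusted p = 0.00678), and it was the 1 of the 7 channel genes called, beside 3.60% of all 14740 genes. *Kcnn3* stood at 4.51 times the WT level (edgeR adjusted p = 0.0111). The log2 fold change was -1.29 for *Kcnj11* (edgeR adjusted p = 0.0113), -0.83 for *Cacna1h* (0.0535), -0.54 for *Clcn1* (0.0623), 0.41 for *Kcnj2* (0.190) and -0.04 for *Kcnma1* (0.908, and 0.28 on the log2 scale when scaled by library size alone). Of the 7, 5 had an unadjusted p of at most 0.05, beside 30.1% of all genes. Without any 1 of the 6 libraries, WT replicates 2 to 4 and KO replicates 9 to 11, 0 were called by edgeR, where *Scn4a* had adjusted p values of 0.0118 to 0.0267 and a smaller share of all genes was called each time. DESeq2 called 3 over the 6 libraries, *Scn4a*, *Kcnj11* and *Kcnn3*, beside 11.4% of all genes, and edgeR called 0 with the 2 other libraries added, beside 1.44%. When scaled by library size alone the 1 called gene was *Kcnn3*, beside 7.89%.

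KO + TAM and WT + TAM mice, which share no library with that comparison, show the genotype difference under tamoxifen. *Kcnn3* was higher with a log2 fold change of 1.81 (standard error 0.25, edgeR adjusted p = 0.00105) and *Kcnj2* with one of 0.74 (standard error 0.13, edgeR adjusted p = 0.00342). *Scn4a* was lower with -0.88 (standard error 0.13, edgeR adjusted p = 0.00139) and *Kcnj11* with -1.03 (standard error 0.16, edgeR adjusted p = 0.00210). These 4 of the 7 were called beside 6.72% of all 14563 genes. *Cacna1h* (-0.97, edgeR adjusted p = 0.0157) and *Clcn1* (-0.71, 0.0168) did not pass, and *Kcnma1* stood at -0.27 (0.392, and 0.01 on the log2 scale when scaled by library size alone). Without KO + TAM replicate 15, *Kcnj2* (edgeR adjusted p = 0.0127) and *Kcnj11* (0.0109) were not called and 2 remained, beside 2.88% of all genes. DESeq2 called 6, beside 13.7%, and limma on log2 RPKM called 2, *Kcnj2* and *Kcnn3*, beside 11.6% with a pseudocount of 0.1 and 11.1% with one of 1.

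KO + TAM mice were also set beside untreated WT mice, which are the controls of the untreated comparison too. The log2 fold changes were 2.31 for *Kcnn3* (edgeR adjusted p = 0.00257), -1.56 for *Cacna1h* (0.00220), -1.06 for *Kcnj11* (0.00329) and -0.87 for *Scn4a* (0.00130). These 4 of the 7 were called beside 7.70% of all 14942 genes. *Clcn1* (-0.60, edgeR adjusted p = 0.0139), *Kcnj2* (0.57, 0.0235) and *Kcnma1* (-0.14, 0.616) were not, and *Kcnma1* was at 0.16 on the log2 scale when scaled by library size alone. Without WT replicate 4, *Cacna1h* (edgeR adjusted p = 0.0115) and *Kcnn3* (0.0104) were not called and *Kcnj2* was (0.00900), beside 3.46% of all genes. The call of *Kcnj11* was lost without WT replicate 2 or 3 or KO + TAM replicate 13 or 15 (edgeR adjusted p = 0.0111 to 0.0120). In these fits 3.99% to 4.77% of all genes were called. *Clcn1* passed without KO + TAM replicate 14 (edgeR adjusted p = 0.00737), beside 4.94%. DESeq2 called 6 of the 7, beside 15.9% of all genes, and with the library labelled WT replicate 1 added edgeR called 1, *Kcnn3*, beside 2.03%.

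**Figure D3:**
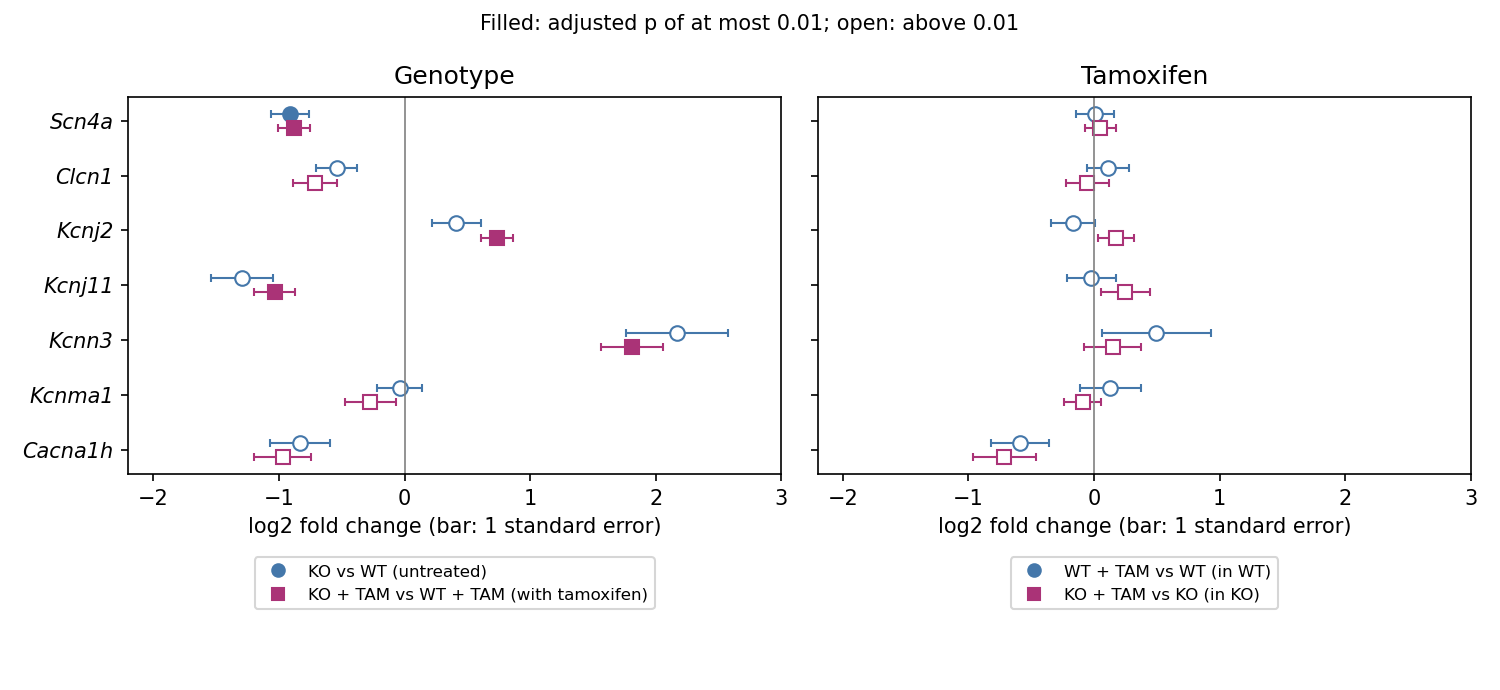
Log2 fold changes with 1 standard error for the 7 channel genes, KO against WT on the left (untreated and with tamoxifen) and tamoxifen against no tamoxifen on the right (in WT and in KO). The standard errors were derived from the F statistic of edgeR's test. Filled symbols have an adjusted p of at most 0.01. Both genotype comparisons place *Kcnn3* and *Kcnj2* above 0 and *Scn4a*, *Clcn1*, *Kcnj11* and *Cacna1h* below 0, and on the right *Cacna1h* lies farthest from 0.

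Tamoxifen was compared with no tamoxifen within each genotype to ask whether the diet changes these genes. In KO mice, *Cacna1h* was at 2.5 ± 0.0834 (SD, n = 3) normalized CPM without and 1.54 ± 0.224 (SD, n = 4) with tamoxifen, a log2 fold change of -0.71 (standard error 0.25, edgeR adjusted p = 0.486). In edgeR's test 0 of the 7 channel genes were called, beside 0% of all 15062 genes. Of the 7, 1 had an unadjusted p of at most 0.05, *Cacna1h*, beside 7.55% of all genes, and DESeq2 called 0 of the 7, beside 0.478% of all genes. The KO + TAM and KO libraries did not overlap for 1 of the 7, again *Cacna1h*, beside 7.68% of all genes. The other 6 had log2 fold changes from -0.09 (*Kcnma1*) to 0.25 (*Kcnj11*).

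In WT mice, *Cacna1h* was at 4.53 ± 0.975 (SD, n = 3) normalized CPM without and 3.02 ± 0.478 (SD, n = 4) with tamoxifen, a log2 fold change of -0.59 (standard error 0.23, edgeR adjusted p = 0.407). In edgeR's test 0 of the 7 were called, beside 0.131% of all 14544 genes. Of the 7, 1 had an unadjusted p of at most 0.05, *Cacna1h*, beside 10.7% of all genes, and DESeq2 called 0 of the 7, beside 1.47% of all genes. The WT + TAM and WT libraries did not overlap for 1 of the 7, *Cacna1h*, beside 11.4% of all genes. This was lost with the library labelled WT replicate 1 added. On a scaling over 16 libraries its *Cacna1h* was at 2.06, below all WT + TAM libraries (2.41 to 3.54). The other 6 had log2 fold changes from -0.17 (*Kcnj2*) to 0.49 (*Kcnn3*).

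Over both genotypes, with genotype as a covariate, the log2 fold change of *Cacna1h* with tamoxifen was -0.64 (standard error 0.15, edgeR adjusted p = 0.0379), or 0.641 times the untreated level. It did not pass 0.01, so edgeR called 0 of the 7, beside 0.476% of all 15556 genes. Of the 7, 1 had an unadjusted p of at most 0.05, beside 14.1% of all genes. DESeq2 called 1, *Cacna1h* (DESeq2 adjusted p = 0.00521, and 0.00521 to 0.183 over the alternative settings), beside 1.99% of all genes. Without any 1 of the 14 libraries edgeR called 0, with an adjusted p for *Cacna1h* of 0.0356 to 0.114. With the 2 other libraries added its log2 fold change was -0.50 (edgeR adjusted p = 0.183), and limma gave -0.49 and -0.14 with pseudocounts of 0.1 and 1.

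The other 6 channel genes had log2 fold changes with tamoxifen from 0.01 (*Kcnj2*) to 0.31 (*Kcnn3*), with edgeR adjusted p values from 0.593 to 0.979. Of the 55 other channel and pump genes, edgeR called 0 for tamoxifen, 13 reached an unadjusted p of at most 0.05 and DESeq2 called 3. The shares of all genes were 0.476%, 14.1% and 1.99%. *Cacna1s* had a log2 fold change of 0.50 (edgeR adjusted p = 0.0222), opposite in sign to *Cacna1h*. Its list held both signs, down to -0.47 for *Cacna1g* (edgeR adjusted p = 0.161). *Scn3b* (1.35, edgeR adjusted p = 0.0227) and *Ano1* (-0.53, 0.0373) also lay between 0.01 and 0.05. The interaction term tests whether the response to tamoxifen differed between genotypes. In edgeR's test 0 of the 7 were called, beside 0% of all genes, with 0 of the 7 at an unadjusted p of at most 0.05 (beside 4.27% of all genes) and 0 of the 7 called by DESeq2 (beside 0.0771% of all genes). The largest term was that of *Kcnj2*, 0.35 (standard error 0.23, edgeR adjusted p = 1.00).

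Markers of blood vessels and fibroblasts are given beside *Cacna1h*. The 6 endothelial markers summed to 84.0, 61.9 and 90.0 in TMM-scaled RPKM in the WT libraries and to 48.4, 48.4, 61.1 and 60.9 in WT + TAM. They summed to 71.8, 66.4 and 50.9 in KO and to 56.6, 41.0, 36.7 and 57.9 in KO + TAM. All WT + TAM sums lay below all WT sums, and the KO + TAM and KO sums overlapped. All 6 markers were above 0 in each of the 14 libraries, and the most abundant was *Cdh5*, a junction protein of endothelium, with a log2 fold change of -0.62 (edgeR adjusted p = 0.0237). For tamoxifen edgeR called 0 of the 6, with 4 at an unadjusted p of at most 0.05 and 2 called by DESeq2. Of all genes, edgeR called 0.476%, 14.1% had such an unadjusted p and DESeq2 called 1.99%. The 6 fibroblast markers summed to 806, 898 and 875 in WT and to 613, 511, 764 and 751 in WT + TAM. They summed to 762, 1038 and 802 in KO and to 808, 769, 766 and 804 in KO + TAM. Again the WT + TAM sums lay below the WT sums, and the other 2 groups overlapped. EdgeR called 0 of these 6 for tamoxifen, with 1 at an unadjusted p of at most 0.05 and 0 called by DESeq2, beside the same shares of all genes. The 9 smooth muscle and pericyte markers had mean sums of 266 ± 21.9 (SD, n = 3) in WT and 221 ± 24.3 (SD, n = 4) in WT + TAM. Mean sums were 225 ± 9.98 (SD, n = 3) in KO and 210 ± 22.6 (SD, n = 4) in KO + TAM. Treated and untreated sums overlapped in each genotype. For tamoxifen edgeR called 0 of the 9, with 2 at an unadjusted p of at most 0.05 and 0 called by DESeq2, again beside these shares. Within WT alone 4 had such an unadjusted p, beside 10.7% of all genes. The part of these lists in the values of *Cacna1h* was not tested.

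Markers of fiber type and of denervation moved with genotype, and so with 6 of the 7 channel genes. Genotype counts of each marker list, here and below, stand beside 20.2% of all genes called by edgeR and 25.8% by DESeq2. The 6 markers of fast 2B fibers summed to 47931, 66479 and 46855 in TMM-scaled RPKM in WT and to 53026, 47762, 49192 and 49471 in WT + TAM. They summed to 22447, 28047 and 31207 in KO and to 31579, 25117, 21636 and 29214 in KO + TAM. Every KO and KO + TAM library was low, with no overlap between genotypes. The library labelled WT replicate 1 had 72095 on a scaling over 16 libraries, the highest of them. Its *Scn4a*, *Clcn1* and *Kcnj11*, given above, were by contrast below those of all other WT and WT + TAM libraries. Of the 6 markers, 0 were higher and 5 lower in KO over both treatments by edgeR, and DESeq2 called 6, with an edgeR median log2 fold change of -1.14. *Pvalb*, a calcium buffer and the most abundant of them, had one of -1.0 (edgeR adjusted p = 1.06e-04), and *Myh4*, the 2B myosin heavy chain, one of -1.27 (edgeR adjusted p = 7.83e-06). *Actn3* (-1.33), *Mybpc2* (-1.39) and *Tnnt3* (-0.77), which encode sarcomere proteins of fast fibers, also fell. The sixth, *Myh1*, the 2X myosin heavy chain, named after its value was seen, had the other sign (0.85, edgeR adjusted p = 0.0153) and is among the 6 that DESeq2 called, as it was by limma and without WT replicate 3. When scaled by library size alone 1 was higher and 5 lower.

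The 10 markers of denervated or immature fibers summed to 56.1, 68.5 and 54.5 in TMM-scaled RPKM in WT and to 66.9, 60.8, 70.5 and 66.2 in WT + TAM. They summed to 176, 179 and 326 in KO and to 160.4, 255, 204 and 172 in KO + TAM. Every KO and KO + TAM library was high, with no overlap between genotypes, and the library labelled WT replicate 1, with 52.7 on a scaling over 16 libraries, lay on the WT side. Of the 10 markers, 9 were higher and 0 lower in KO over both treatments by edgeR, and DESeq2 called 9, with an edgeR median log2 fold change of 2.03. *Chrna1*, the muscle acetylcholine receptor subunit, had a log2 fold change of 1.94 (edgeR adjusted p = 9.82e-07), close in size to that of *Kcnn3*. *Runx1* (2.93), *Myog* (1.63) and the developmental sarcomere genes *Myh3* (3.57), *Myh8* (2.13) and *Myl4* (2.71) also rose. *Gadd45a*, a stress and atrophy gene and the most abundant of the list, had one of 1.57 (edgeR adjusted p = 9.81e-05).

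The 8 markers listed for slow fibers, 1 of which, *Myh2*, encodes the myosin heavy chain of fast 2A fibers, summed to 288, 22.1 and 549 in TMM-scaled RPKM in WT and to 296, 69.6, 258 and 257 in WT + TAM. They summed to 658, 814 and 282 in KO and to 1019, 339, 451 and 660.1 in KO + TAM. The KO libraries were mostly high, and the genotypes overlapped. Of the 8, 3 were higher and 0 lower in KO over both treatments by edgeR, with 3 called by DESeq2 and a median log2 fold change of 1.52. These were *Tnnt1* (2.23), *Tnni1* (2.54) and *Atp2a2* (0.91), the slow calcium pump. *Myh2*, the most abundant and so the largest part of these sums, had a log2 fold change of 1.37 (edgeR adjusted p = 0.0667). *Tnnt1* was not called without WT replicate 2, WT + TAM replicate 7 or 8, KO replicate 10 or KO + TAM replicate 13 or 16 (edgeR adjusted p = 0.0106 to 0.0174). With the 2 other libraries added 1 of the 8 was called, and the library labelled WT replicate 1 had a sum of 2218 on that scaling, above all 15 others.

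The 8 markers of the skeletal muscle fiber, of which the fast 2B list also holds *Tnnt3*, summed to 82383, 108477 and 86917 in WT and to 96289, 83217, 92635 and 89957 in WT + TAM, in TMM-scaled RPKM. They summed to 53261, 51199 and 58378 in KO and to 74062, 54628, 45277 and 61505 in KO + TAM. Every KO and KO + TAM library was low, with no overlap between genotypes. The library labelled WT replicate 1 had 135134 on a scaling over 16 libraries, again the highest of them. Of the 8, 0 were higher and 5 lower in KO over both treatments by edgeR, and DESeq2 called 6, with an edgeR median log2 fold change of -0.64, and of -0.34 when scaled by library size alone. Limma called 2 with a pseudocount of 0.1 and 3 with one of 1. *Acta1* had one of -0.65 (edgeR adjusted p = 7.07e-04), *Ckm*, the muscle creatine kinase, -0.89, *Ryr1*, the calcium release channel, -0.73, *Tnnt3*, the fast troponin T, -0.77 and *Mylpf*, a fast myosin light chain, -0.63. *Mb*, the myoglobin gene, named after its value was seen, had the other sign (0.82, edgeR adjusted p = 0.0837). In WT replicates 2 to 4, 23.6% to 27.6% of all counts fell on the 10 genes with the most counts, and in KO replicates 9 to 11 16.9% to 18.8%. The part of these fiber markers in the values of the channel genes was not tested.

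Muscle tissue also holds other cell types. The 9 smooth muscle and pericyte markers had a lowest, median and highest sum of 186, 215 and 239 in TMM-scaled RPKM over the 7 KO and KO + TAM libraries, and of 193, 242 and 283 over the 7 WT and WT + TAM libraries. Of these, 1 was higher, *Cspg4* (0.58), and 2 lower, *Acta2* (-0.41, the most abundant) and *Myh11* (-0.48), with a median log2 fold change of -0.24 that was 0.06 when scaled by library size alone, where 3 were higher and 0 lower. *Acta2* was not called without WT replicate 2 or 3, WT + TAM replicate 7 or 8, KO replicates 9 to 11 or KO + TAM replicate 14 (edgeR adjusted p of up to 0.0113). *Cspg4* was not called without WT replicates 2 to 4, WT + TAM replicates 6 to 8, KO replicate 9 or 10 or KO + TAM replicate 13, 15 or 16 (edgeR adjusted p = 0.0120 to 0.0236), 1 at a time. The count fell from 3 to 1 without WT replicate 2 or 3, WT + TAM replicate 7 or 8 or KO replicate 9 or 10, and with the 2 other libraries added. The endothelial sums over the same libraries were 36.7, 56.6 and 71.8 with the KO genotype and 48.4, 61.1 and 90.0 with the WT genotype, with 0 genes higher and 1 lower by edgeR, *Tek* (-0.53), and 1 called by DESeq2. That list's median was -0.27, and 0.02 when scaled by library size alone. The call was lost in that setting, with limma and with the 2 other libraries added.

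The 8 nerve and Schwann cell markers had sums of 90.8, 115 and 170.4 in TMM-scaled RPKM with the KO genotype and 71.1, 116 and 157 with the WT genotype (lowest, median and highest of 7 libraries each). The genotypes overlapped throughout. Of 7 that passed the filter, 2 were higher and 0 lower by edgeR, among them *Ncmap* (0.86), with 2 called by DESeq2 and a median log2 fold change of 0.19. When scaled by library size alone 4 were higher and 0 lower. *Nefl*, a neurofilament gene, had 0 counts in at least 1 library. The count was 1 without WT replicates 2, 3 or 4, WT + TAM replicate 7 or 8, KO replicate 10 or 11 or KO + TAM replicate 14 or 15, left out 1 at a time, and with the 2 other libraries added 0 of the 7 were called.

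The sums of the next 3 lists are again the lowest, median and highest of the 7 KO and KO + TAM and of the 7 WT and WT + TAM libraries. The 6 immune cell markers had sums of 16.4, 22.1 and 40.1 in TMM-scaled RPKM with the KO genotype and 6.38, 13.7 and 16.3 with the WT genotype. All KO and KO + TAM libraries lay above all WT and WT + TAM libraries. Of 5 that passed the filter, 2 were higher and 0 lower by edgeR, *Ptprc* (0.89) and the macrophage gene *Cd68* (1.52, the most abundant), with 3 called by DESeq2 and a median of 0.62. *Cd3e* had 0 counts in at least 1 library. The 6 fibroblast markers had sums of 762, 802 and 1038 with the KO genotype and 511, 764 and 898 with the WT genotype, with 3 higher and 0 lower by edgeR, *Pdgfra* (0.40), *Dcn* (0.41, the most abundant) and *Lum* (0.55), 3 called by DESeq2 and a median of 0.33. *Dcn* was not called without WT replicates 2 to 4, WT + TAM replicates 6 to 8, KO replicate 10 or 11 or KO + TAM replicate 13, 14 or 16, 1 at a time (edgeR adjusted p = 0.0102 to 0.0231), nor *Pdgfra* without 4 of these (0.0104 to 0.0109). The count was 1 without those 4, WT replicate 3 or 4, WT + TAM replicate 7 or KO + TAM replicate 14, and 0 with the 2 other libraries added. The 6 fat cell markers had sums of 1231, 1458 and 2340 with the KO genotype and 389.5, 987 and 3661 with the WT genotype, with 0 called by edgeR or DESeq2, 0 at an unadjusted p of at most 0.05 and a median of -0.11 that was 0.18 when scaled by library size alone. *Fabp4*, the most abundant, stood at 0.03 (edgeR adjusted p = 0.956), and at -0.02 with the 2 other libraries added. The part of these cell types in the channel values was not tested.

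For each channel gene, the 3 genes with the most similar pattern over the 14 libraries were taken by Pearson's r on log2 CPM. The libraries fall into 2 clusters by genotype, which every gene that differs between genotypes shares, so r is a description only. *Scn4a* was closest to *Alkbh5* (r = 0.981, n = 14 libraries), *Mstn*, which encodes myostatin (0.979), and *Mtmr3*, another myotubularin family gene (0.979). *Clcn1* was closest to *Tti1* (0.977), *Mtus1* (0.973) and *Sugp2* (0.971), and *Kcnj11* to *Otud4* (0.979), *Mark3* (0.979) and *Gm15676* (0.970). *Kcnj2* was closest to *Agrp* (0.960), *Dio2*, a thyroid hormone deiodinase (0.956), and *Tmem173* (0.952). *Kcnn3* was closest to *Hsf2bp* (0.964), *Myom3*, an M-band gene (0.948), and *Lrrn1* (0.947). *Cacna1h* was closest to *Rmi2* (0.945), *Ighm*, an immunoglobulin gene (0.937), and *Pdzd7* (0.928), and *Kcnma1* to *Zfp398* (0.861), *Lmbrd2* (0.860) and *Bcl9l* (0.847). No channel gene was among the nearest genes of another.

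Promoters were read because 6 of the 7 genes moved with genotype. The RefSeq promoter table at hand (GRCm38.p6) holds 5 of the 7, without *Kcnj11* and *Cacna1h*, and the 250 bases before its gene starts were searched on both strands. For *Scn4a* and *Kcnma1* these starts lie inside the GENCODE spans given above, so the bases before the outermost starts of these 2 genes were not searched. The E-box CANNTG, a site of myogenic factors such as myogenin, is in 66.2% of 32817 promoters of this length. The MEF2 motif is in 2.92%, and the full palindromic estrogen response element in 0.0640%. The *Clcn1* window held 3 E-boxes and 1 MEF2 match, the *Kcnj2* window 2 E-boxes, and the windows of *Scn4a*, *Kcnn3* and *Kcnma1* none of these. No estrogen response element was found in the 5 windows, and no matches of different motifs overlapped. The windows of *Clcn1* (plus strand, chr6:42286435-42286684) and *Kcnj2* (plus strand, chr11:111065914-111066163) are shown, since they hold matches while the genes moved in opposite directions. Capitals mark E-boxes and, in *Clcn1*, also the MEF2 match, which is the last run of capitals.
Clcn1: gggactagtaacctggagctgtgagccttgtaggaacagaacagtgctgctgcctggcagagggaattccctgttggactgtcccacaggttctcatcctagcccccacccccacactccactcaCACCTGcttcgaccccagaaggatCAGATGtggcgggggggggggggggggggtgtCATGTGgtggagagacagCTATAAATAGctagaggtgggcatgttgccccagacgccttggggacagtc
Kcnj2: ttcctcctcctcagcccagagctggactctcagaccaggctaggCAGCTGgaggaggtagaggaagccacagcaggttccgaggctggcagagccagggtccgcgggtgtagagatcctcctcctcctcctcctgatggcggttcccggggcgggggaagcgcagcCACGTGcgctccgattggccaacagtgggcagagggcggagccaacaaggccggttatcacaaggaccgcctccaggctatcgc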

How the data were processed

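Quadriceps RNA of 16 mice was analysed from 2 deposited tables. The authors aligned reads to GRCm38 with STAR (2.5.0c in the submitters' notes, which also list bcl2fastq 2.17 and Cufflinks 2.2.1) and deposited raw read counts per gene from HTSeq. The deposited RPKM are these counts scaled to the counted reads and per kilobase of gene, with a gene length that is not stated. The strand setting and the annotation used for counting are not stated either.

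Counts were fitted with edgeR 4.0.16 (R 4.3.3) after TMM normalization and the filter filterByExpr (minimum count 10, minimum total 15), whose quasi-likelihood p was adjusted by Benjamini-Hochberg over all genes tested. A gene was called at an adjusted p of at most 0.01. Pairs of groups were fitted alone. The terms over both treatments or genotypes were fitted over all 4 groups with the other factor as a covariate and without the interaction. The interaction came from a fit of all 4 groups that holds it. TMM-scaled RPKM are the deposited RPKM divided by the TMM factor. The method was tested on simulated data. The 16 libraries held 25116179 to 29847222 counts. *Kcnn3* (12 to 261 in the 14 libraries) and *Cacna1h* (44 to 143) had few of them, so relative counting noise is largest for these 2 of the 7 channel genes. No batch is given in the labels, and of 120 library pairs 0 shared identical counts.

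The genes and lists were chosen with earlier results of these data known. Named genes are the 7 channel genes, at most the 6 called genes of lowest p in each other list and its most abundant gene by mean RPKM, *Mtm1*, and for each channel gene the 3 genes of highest Pearson r. Not every gene that these rules pick is named. Outside them, *Kcnq5*, *Myh1*, *Mb*, *Cacna1g*, *Scn3b* and *Ano1* are named after their values were seen. Other genes are named for counts of 0 or for exon bases shared with a channel gene. Lists other than the channel, pump and marker lists were not used. The alternatives were DESeq2 1.42.0, limma 3.58.1 on log2 RPKM with pseudocounts of 0.1 and 1, an adjusted p of 0.05, RLE and library size scaling, no filter, 1 fit of all 4 groups, all 16 libraries, and leaving out 1 library at a time. Alternatives for the other named genes, the lists and the overlap of genotypes were added after seeing the data.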

Additional observations from a re-analysis of the deposited data

Results flagged for a closer look

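In groups of 4 libraries, with all 16 libraries on 1 scaling, *Clcn1* in WT + TAM replicate 6 was far from the 3 others of its group. It stood at 196 normalized CPM against 125 to 126 in the others, a gap of 0.986 of the group's range, above Dixon's critical value for 4 samples. This was 1 of 28 groups tested, and chance gives about 1 in 20. Without this library the genotype term of *Clcn1* was still called at 0.01.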

How the results depend on the processing

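The tool, scaling, filter, threshold and libraries were varied, and the alternatives for the lists, the other named genes and the overlap of genotypes were added after seeing the data. Of 148 alternative counts of called channel genes, 130 were the count given or within 1.5 times of it. Many of these belong to the tamoxifen comparisons and the interaction, where the count was 0. There few genes of any kind passed in any setting, so those counts say little about stability. For KO vs WT, with 1 called beside 3.60% of all genes, 3 were called at an adjusted p of at most 0.05 (beside 12.8%), 3 by DESeq2 (11.4%), 3 without the filter (4.83%), 3 in 1 fit of all 4 groups (6.34%) and 0 with 16 libraries (1.44%). Leaving out 1 library gave 0 to 0. For KO + TAM vs WT + TAM, with 4 beside 6.72%, limma called 2 with either pseudocount (11.6% and 11.1%). Leaving out 1 library there gave 2 to 4 (2.88% to 6.20%). For KO + TAM vs WT, with 4 beside 7.70%, 16 libraries gave 1 (2.03%). Leaving out 1 library there gave 3 to 5 (3.46% to 8.45%, the highest without KO + TAM replicate 16). For tamoxifen over both genotypes, with 0 beside 0.476%, a threshold of 0.05 (1.72%) and DESeq2 (1.99%) each gave 1. No overlap between genotypes, with 4 beside 10.7%, held for 2 with 16 libraries (5.57%).

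Some log2 fold changes took the other sign. For *Kcnma1* this was 0.2837 in KO vs WT with library size only, 0.2784 and 0.1948 with limma (pseudocounts 0.1 and 1) and 0.0638 with 16 libraries. In KO + TAM vs WT + TAM it was 0.0116 with library size only and 0.0453 and 0.0245 with limma, and in KO + TAM vs WT 0.1556, 0.1426 and 0.1001. For genotype over both treatments it was 0.1279, 0.1452 and 0.0975, and for tamoxifen -0.0192 and -0.0096 with limma. *Clcn1* had 0.1168 in KO + TAM vs KO with 16 libraries and, for tamoxifen, -0.0036 and -0.0027 with limma. *Kcnj11* had 0.2926 in WT + TAM vs WT with 16 libraries. *Kcnj2* had, for tamoxifen, -0.0241 with library size only and -0.0053 and -0.0024 with limma. In the interaction, *Scn4a* had -0.0096 with library size only and -0.0251 with 16 libraries, and *Cacna1h* 0.0085 with limma (pseudocount 1). For genotype with 16 libraries *Fxyd1* had -0.0525 and *Fabp4* -0.0238.

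Leaving out 1 library gave both signs for these log2 fold changes. In KO + TAM vs KO they were *Clcn1* (-0.1920 to 0.1181) and *Scn4a* (-0.0281 to 0.1313). In WT + TAM vs WT they were *Clcn1* (-0.0707 to 0.1696), *Kcnj11* (-0.2046 to 0.1322), *Kcnj2* (-0.2994 to 0.0307), *Kcnma1* (-0.0684 to 0.3149) and *Scn4a* (-0.1028 to 0.1264). For tamoxifen they were *Clcn1* (-0.0570 to 0.1181), *Kcnj2* (-0.0675 to 0.1185), *Kcnma1* (-0.0760 to 0.0932) and *Scn4a* (-0.0171 to 0.0939). In the interaction they were *Clcn1* (-0.2886 to 0.0346), *Kcnn3* (-0.7425 to 0.0230) and *Scn4a* (-0.0721 to 0.1698). *Kcnma1* ranged from -0.1743 to 0.1499 in KO vs WT and from -0.2729 to 0.0497 in KO + TAM vs WT. For genotype they were *Fabp4* (-0.1567 to 0.2801) and *Fxyd1* (-0.0375 to 0.0860). The cause was not tested. The genotype terms of *Scn4a*, *Clcn1*, *Kcnj2*, *Kcnj11*, *Kcnn3* and *Cacna1h* kept their direction throughout. Few counts of *Kcnn3* and *Cacna1h* and 3 or 4 libraries a group limit what the pairs can show. The mice were littermates by the paper, but the labels record no litter and the groups share no replicate numbers, so no fit takes litter into account.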
